A study of Mus musculus with 6 samples.

Results

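The genes described here encode 9 proteins of complement and the acute-phase response. They were chosen by symbol, 9 of the 55571 entries of the deposited count table, namely C1ra, C1s1, C4b, C3, Cfb, Serping1, Saa3, Lcn2 and Ptx3, and 7 of them had enough counts to be tested among 13594 genes. RNA was sequenced from E0771, a mouse cell line grown from a mammary tumour, in 2 forms: cells with the empty vector (Vector control, 3 libraries) and cells with wild-type Malt1 (Malt1-WT, 3 libraries). Malt1 encodes a paracaspase that signals towards NF-kB. No stimulus is named in the labels of any of the 6 libraries. The sources used here do not say whether a group was 1 clone or a pool of cells, how Malt1 was introduced, or whether a group's libraries were grown as separate cultures. All p-values below rest on the spread among these 6 libraries alone, which may be technical.

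Complement is a cascade of secreted proteins that tags surfaces for removal. The proteases C1r and C1s, bound to C1q, cleave C4 and C2 to form an enzyme that cleaves C3, factor B supplies the enzyme of the alternative pathway, and the C1 inhibitor encoded by Serping1 inactivates C1r and C1s. Acute-phase proteins are secreted in large amounts in inflammation, mostly by the liver, although serum amyloid A3 (Saa3), the siderophore-binding lipocalin 2 (Lcn2) and the long pentraxin Ptx3 are also made by other tissues, tumour cells among them.

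Total counts ranged from 17601656 to 20543778 per library. Malt1, the introduced gene, had 517, 633 and 611 counts in the Vector control libraries and 5526, 6176 and 5087 in Malt1-WT (log2 fold change 3.34, SE 0.042, edgeR adjusted p = 4.1e-50). Of the 6 epithelial markers, Krt8 (1021 to 1430 counts per library) and Epcam (95 to 132) were detected in both groups, while Krt5 had no count and Cdh1 (2 to 7), Krt18 (2 to 9) and Krt14 (0 to 6) had few. Krt8 was lower in Malt1-WT (log2 fold change -0.20, edgeR adjusted p = 0.000316), and Epcam did not pass the test (-0.02, edgeR adjusted p = 0.920).

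C3, the C1 protease genes and the acute-phase genes Saa3 and Lcn2 were expressed in the Vector control cells already, and all 7 tested members were higher in Malt1-WT. Serping1 rose 6.11-fold, Saa3 4.27-fold, C3 3.37-fold and Lcn2 3.05-fold, whereas C4b (1.75-fold), C1s1 (1.39-fold) and C1ra (1.35-fold) changed by less than 2-fold. In such bulk RNA, more expressing cells and more RNA per cell cannot be told apart. Ptx3 was not detectable beyond 1 count, and Cfb had too few counts to be tested. By edgeR's quasi-likelihood test at an adjusted p under 0.05, 61.2% of all tested genes were called, 31% as higher and 30.2% as lower in Malt1-WT, and 8.35% were called and at least 2-fold higher. Against this, 4 of the 7 tested members were at least 2-fold higher. The median log2 fold change was 1.61 over the 7 members and -0.0029 over all tested genes. The members were chosen with earlier results of these data known, so these contrasts describe the list and are no test of it. The 3 libraries of one group lay wholly above those of the other for all 7 tested members, as for 64.4% of all tested genes. Cfb and Ptx3 did not pass the filter on low counts, so none of these counts covers all 9 genes.

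**Figure D1:**
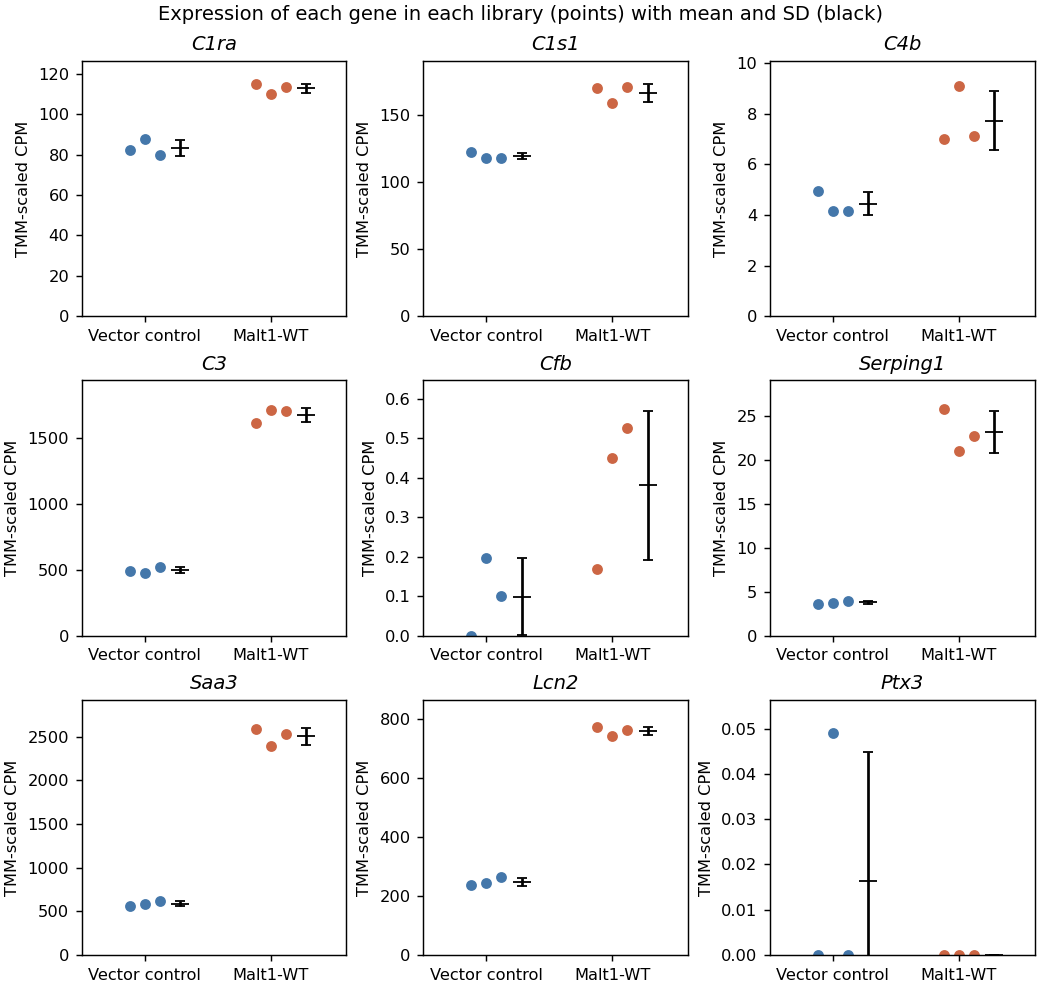
Expression of the 9 genes in each library, as TMM-scaled CPM on linear axes from 0; points are libraries, black marks the mean and SD of 3 libraries. The groups do not overlap in 7 panels, the vector libraries of Cfb reach 0.196 CPM against a lowest Malt1-WT value of 0.168, and Ptx3 has a single nonzero library.

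The C1 proteases changed least. C1ra, which encodes the protease that activates C1s, had 82.3, 87.6 and 79.9 CPM in the Vector control libraries and 115, 110 and 113 CPM in Malt1-WT, where CPM are counts per 1000000 counts of a library after TMM scaling. All 3 Malt1-WT libraries were above all 3 vector libraries, and the gap was larger than the spread within either group (log2 fold change 0.44, SE 0.042, edgeR adjusted p = 4.5e-13). C1s1, which encodes the protease that cleaves C4 and C2, had 122, 118 and 118 CPM in the vector libraries and 170, 159 and 171 CPM in Malt1-WT. Its groups were likewise apart (log2 fold change 0.48, SE 0.037, edgeR adjusted p = 3.1e-16). C1ra (positions 124512405 to 124523443, plus strand) and C1s1 (124530345 to 124542359, minus strand) point towards each other on chromosome 6 of GRCm38, with 6901 bases between their ends. Within a library, the C1s1 count was 1.44 ± 0.0789 times the C1ra count in Vector control and 1.48 ± 0.0328 times in Malt1-WT (SD, n = 3 each), and these ratios overlapped between the groups (exact permutation test, two-sided p = 0.5).

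Both protease genes have a nearby copy of similar sequence. Of the 150-base stretches of the longest C1ra transcript, 26.3% also occur in C1rb, and 2.86% of those of C1s1 occur in C1s2. The copies held few of the counts: C1ra had 99.6% of the summed C1ra and C1rb counts in Vector control and 99.8% in Malt1-WT, and C1s1 had 97.1% and 97.5% of the sum with C1s2. The antisense gene Gm16567 covers 18.4% of the C1s1 exon bases on the other strand and had no count in any library. Reads that fit both copies cannot be assigned with certainty.

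C4b, which encodes the complement component cleaved by C1s, was expressed at a low level. It had 4.97, 4.17 and 4.18 CPM in Vector control and 6.99, 9.09 and 7.14 CPM in Malt1-WT, from 84 to 90 and 122 to 182 counts per library. Malt1-WT replicate 2 was the highest, and the groups did not overlap (log2 fold change 0.81, SE 0.15, edgeR adjusted p = 4.5e-06). A 95% interval of 0.51 to 1.11 on the log2 scale includes a 2-fold change. C4b lies on chromosome 17 (34728380 to 34743882, minus strand), and 8.26% of its 150-base stretches are shared with C4a, the copy that had 30 counts over the vector libraries and 32 over Malt1-WT.

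C3, the component on which all complement pathways converge, had 491, 477 and 522 CPM in the Vector control libraries and 1611, 1708 and 1702 CPM in Malt1-WT. Every Malt1-WT library held at least 28804 counts of C3, against at most 10501 in a vector library. The log2 fold change was 1.75 (SE 0.029, edgeR adjusted p = 4.6e-43), and C3 moved from place 247 to place 33 when all genes were ordered by mean CPM. C3 also lies on chromosome 17 (57203970 to 57228136, minus strand), apart from C4b. Per C4b count there were 113 ± 13.1 C3 counts in Vector control and 219 ± 27.1 in Malt1-WT (SD, n = 3 each), with no overlap. Two-sided exact permutation tests of 3 libraries against 3 cannot go below p = 0.1, the value for this ratio (0.117 when adjusted over 7 such ratios, which were chosen with the values known).

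Cfb, which encodes factor B, had 0, 4 and 2 counts in Vector control and 3, 9 and 9 in Malt1-WT. Malt1-WT replicate 1, with 3 counts, lay within the vector range, so the groups overlapped. The pooled ratio was 3.73 with an exact 95% counting interval of 1.46 to 11.3, which covers counting error only. In the fit without a filter on low counts the log2 fold change was 1.83 (SE 0.84, edgeR adjusted p = 0.0893). In the GENCODE M21 annotation, 79.5% of the exon bases of Cfb (chromosome 17, 34856374 to 34862518, minus strand) also belong to Gm20547, a same-strand gene model that runs on into C2 and had no count in any library. The sources used here do not give how reads that fit 2 genes were counted, and the effect of this on the Cfb counts was not tested.

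Serping1, the inhibitor of C1r and C1s, had the largest fold change of the tested members from a low level. Its 3.64, 3.73 and 3.98 CPM in Vector control (66 to 80 counts) compared with 25.8, 21.1 and 22.8 CPM in Malt1-WT (389 to 461 counts). All Malt1-WT libraries were far above all vector libraries, and the log2 fold change was 2.61 (SE 0.11, edgeR adjusted p = 5.4e-26). Serping1 lies on chromosome 2 (84765387 to 84775444, minus strand). The inhibitor changed by more than the proteases it acts on, in RNA: per Serping1 count there were 20.1 to 23.5 C1ra counts in the Vector control libraries and 4.45 to 5.23 in the Malt1-WT libraries. For C1s1 the same ratio went from 31.6 ± 1.91 to 7.21 ± 0.524 (SD, n = 3 each). Neither ratio overlapped between groups (two-sided exact permutation p = 0.1 each, the smallest possible).

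Saa3, an acute-phase apolipoprotein gene active outside the liver, was the most abundant member in both groups. It had 559, 584 and 613 CPM in Vector control and 2585, 2390 and 2528 CPM in Malt1-WT. The libraries of the groups were far apart relative to their spread (log2 fold change 2.09, SE 0.030, edgeR adjusted p = 5.8e-40). Saa3 held 0.0600% of all counts in Vector control and 0.243% in Malt1-WT, where it was the gene in place 14 by mean CPM. It lies on chromosome 7 (46711998 to 46715700, minus strand) and shares no 150-base stretch with Saa1 or Saa2.

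Lcn2, which encodes a secreted protein that withholds iron-carrying siderophores from bacteria, had 238, 244 and 265 CPM in Vector control and 773, 745 and 764 CPM in Malt1-WT. Both groups were tight and well separated (log2 fold change 1.61, SE 0.032, edgeR adjusted p = 8.4e-41). Lcn2 lies on chromosome 2 (32384633 to 32388252, minus strand). Saa3 rose by more than Lcn2: a library held 2.35 ± 0.0376 Saa3 counts per Lcn2 count in Vector control and 3.29 ± 0.0693 in Malt1-WT (SD, n = 3 each), with no overlap (two-sided exact permutation p = 0.1). C3 and Lcn2 stayed closer, at 1.99 ± 0.0577 and 2.20 ± 0.107 C3 counts per Lcn2 count, with the highest vector library at 2.06 and the lowest Malt1-WT library at 2.08.

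Ptx3, a soluble pattern receptor that binds C1q, had 1 count in Vector control replicate 2 and 0 in the other 5 libraries. No count over the 3 Malt1-WT libraries allows a level of up to 0.0545 CPM (3 counts over the group), so a fold change cannot be given at this depth. Ptx3 lies on chromosome 3 (66219910 to 66225805, plus strand).

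**Figure D2:**
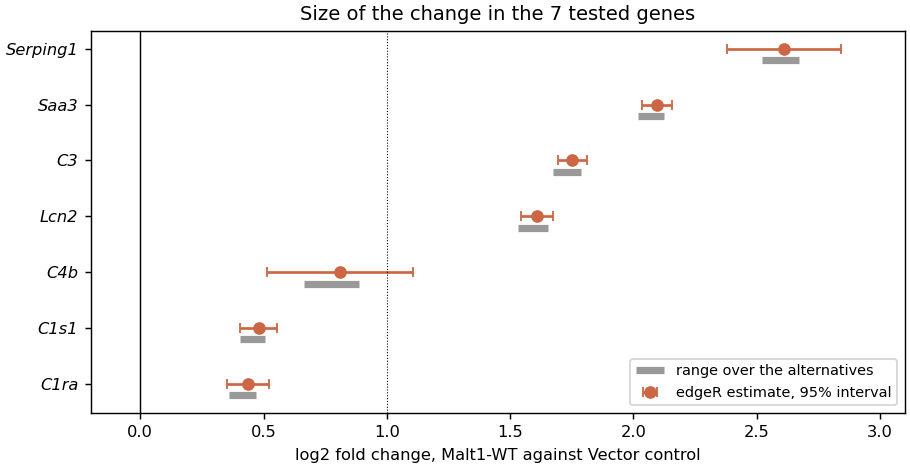
Log2 fold change of the 7 tested genes, Malt1-WT against Vector control, with 95% intervals (points and thin bars) and the range over the 15 alternative analyses (grey bars); the dotted line marks a 2-fold change. Serping1, Saa3, C3 and Lcn2 lie to the right of the line, C1s1 and C1ra to its left, and the interval of C4b (0.51 to 1.11) crosses it.

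The 95% intervals of the log2 fold change did not overlap between Serping1 (2.38 to 2.84), Saa3 (2.03 to 2.16), C3 (1.69 to 1.81) and Lcn2 (1.55 to 1.67). Those of C1s1 (0.41 to 0.56), C1ra (0.35 to 0.52) and C4b overlapped. Of all tested genes, 1.79% had a larger increase than Serping1, 2.69% than Saa3, 3.74% than C3, 4.26% than Lcn2 and 10.9% than C4b. C1s1 and C1ra stood at places 2585 and 2781 in this order. The plot of change against expression shows Saa3, C3 and Lcn2 among the abundant genes.

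**Figure D3:**
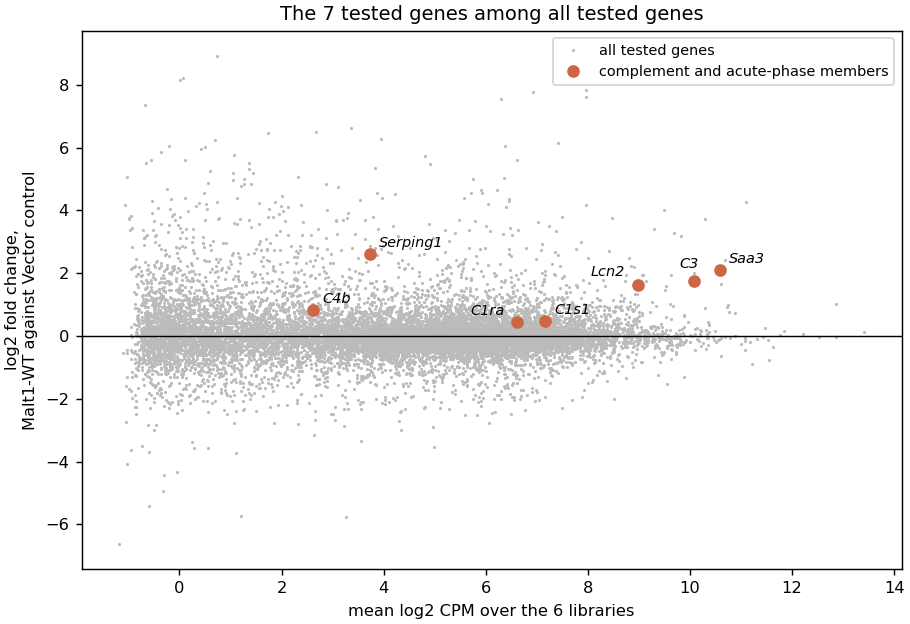
Log2 fold change (vertical axis) against mean log2 CPM (horizontal axis) of all 13594 tested genes in grey, with the 7 tested complement and acute-phase members in orange. C1ra and C1s1 sit near the bulk of genes, and Saa3, C3, Lcn2 and Serping1 sit above it, at log2 fold changes of 1.61 to 2.61.

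Levels of different genes were compared as CPM per kb of merged exon length. In Malt1-WT the order was Saa3 (960 ± 38.5 CPM per kb), C3 (325 ± 10.5), Lcn2 (290 ± 5.56), C1s1 (53.2 ± 2.18), C1ra (37.8 ± 0.785), Serping1 (9.98 ± 1.03), C4b (1.36 ± 0.205) and Cfb (0.135 ± 0.0668; SD, n = 3 throughout). The same order held in Vector control, from Saa3 at 225 ± 10.4 CPM per kb to C4b at 0.780 ± 0.0803 and Cfb at 0.0349 ± 0.0348, but there C3 (92.8 to 101 CPM per kb over the libraries) and Lcn2 (90.9 to 101) did not differ beyond their spread. The merged exons of Saa3 (2606 bases) and Lcn2 (2623 bases) include bases of longer annotated transcripts. Those of Cfb are mostly shared with Gm20547, and the effect on its level was not tested. With the length of the principal transcript, an alternative chosen after seeing the data, Saa3 (555 bases) stood at 4507 and Lcn2 (915 bases) at 831 CPM per kb in Malt1-WT, and Lcn2 then lay above C3 (326).

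The 3 abundant members that rose by at least 3-fold, Saa3, C3 and Lcn2, are shown with the 250 bases before their RefSeq start site (GRCm38.p6, 5′ to 3′ on the gene's own strand); they are shown because the 3 genes rose together. RefSeq promoter entries matched 6 of the 9 members. Capitals mark matches to 4 motifs searched on both strands: kB (GGGNNNTTCC), C/EBP (TTGCNNAA), STAT (TTCNNNGAA) and IRF (GAAANNGAA). The window of Saa3 is chr7:46715677-46715926, that of C3 chr17:57228137-57228386 and that of Lcn2 chr2:32387740-32387989, all on the minus strand. The Lcn2 window lies inside the GENCODE span of the gene, which reaches 32388252, and the Saa3 window overlaps the end of its gene at 46715700. Distances below are from the RefSeq start and would differ from the GENCODE start of these genes.
Saa3: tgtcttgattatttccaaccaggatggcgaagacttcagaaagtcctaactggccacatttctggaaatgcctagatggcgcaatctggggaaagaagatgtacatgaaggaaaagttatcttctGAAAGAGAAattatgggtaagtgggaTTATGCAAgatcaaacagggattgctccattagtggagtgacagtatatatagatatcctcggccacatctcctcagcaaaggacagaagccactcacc
C3: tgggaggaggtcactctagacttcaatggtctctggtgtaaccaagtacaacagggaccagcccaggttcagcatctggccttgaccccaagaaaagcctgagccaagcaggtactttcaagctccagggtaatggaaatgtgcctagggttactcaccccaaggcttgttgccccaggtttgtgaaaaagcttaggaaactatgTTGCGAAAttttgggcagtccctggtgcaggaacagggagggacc
Lcn2: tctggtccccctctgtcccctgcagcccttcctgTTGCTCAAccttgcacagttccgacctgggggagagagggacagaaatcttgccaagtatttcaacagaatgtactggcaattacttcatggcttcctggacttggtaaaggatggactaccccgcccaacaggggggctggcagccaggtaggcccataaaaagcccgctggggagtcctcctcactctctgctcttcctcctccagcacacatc

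Each of the 3 windows held 1 match to the C/EBP motif, TTATGCAA 99 to 92 bases before the Saa3 start (the motif on the other strand), TTGCGAAA 45 to 38 bases before the C3 start and TTGCTCAA 216 to 209 bases before the Lcn2 start. This motif was found in 9.56% of the 32851 windows of the same length in the table. The window of Ptx3, which had 1 count in all, also held a match (TTGTGCAA), as did 1 of the 2 windows of C1s1, while C1ra held none. An IRF match, GAAAGAGAA, lay 125 to 117 bases before the Saa3 start, with the IRF motif in 7.13% of all windows. No kB match (4.65% of windows) or STAT match (7.02%) was found for any matched member, which says only that these letters are not in these windows. A motif match is a description of letters and not a bound site.

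Of the 49 other complement genes in 6 lists, 16 were tested, 5 were higher, 5 lower and 6 did not pass the test, with a median log2 fold change of 0.16. These shares were near those of all tested genes, of which 31% were called higher and 30.2% lower. No count in any of the 6 libraries was found for 13 of the 49, among them the C1q subunit genes C1qa, C1qb and C1qc and the decay-accelerating factor gene Cd55. C2, which is cleaved by C1s, was among the higher (4.95 ± 0.305 to 8.02 ± 1.16 CPM, log2 fold change 0.69, SE 0.14, edgeR adjusted p = 3.6e-05), and 42.8% of its exon bases also belong to Gm20547. Hc, which encodes C5, went from 36 to 177 counts per group (log2 fold change 2.38, SE 0.31, edgeR adjusted p = 2.2e-09). Vector control replicate 3 held 21 of the 36 vector counts of Hc, and without it the log2 fold change was 3.02. Hc passed the filter on low counts through its Malt1-WT libraries. C6, C8a and C8b, which encode parts of the membrane attack complex, had no count.

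Masp1, a lectin pathway protease gene, fell from 9.13 ± 0.611 to 2.07 ± 0.147 CPM (SD, n = 3, log2 fold change -2.14, SE 0.16, edgeR adjusted p = 1.4e-16). Cfp, which encodes the alternative pathway stabiliser properdin, fell by 0.48 on the log2 scale (edgeR adjusted p = 0.00282), but not past the test without Vector control replicate 1 (-0.32, adjusted p = 0.0687). Of the 5 tested complement inhibitor genes, Serping1 was called as higher. The cell-surface inhibitor gene Cr1l fell by 0.22 and the clusterin gene Clu by 0.19 on the log2 scale (edgeR adjusted p = 0.00572 and 1.0e-05), and Cd46 (-0.20) and Cd59a (0.12) did not pass. Among 5 tested receptor genes, Itgax (1.43), Cd93 (1.31) and Itgb2 (0.40) were higher and C1qbp (-0.08) lower, with Cr2 (0.03) not past the test. The shares over all tested genes were 31% called higher and 30.2% lower, and lists of 5 are too short to be set apart from them. Leaving out Malt1-WT replicate 1 or replicate 3 took Itgb2 out of the calls (adjusted p = 0.0558 and 0.0513), and C1qbp did not pass without Vector control replicate 2 or 3 or Malt1-WT replicate 2 or 3 (0.0769 to 0.191), with DESeq2 (0.0752) or with the replicate block (0.0712).

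Other acute-phase genes moved in both directions. Of 33 such genes beside the members, 16 were tested, 11 were higher, 4 lower and 1, Fgl1, did not pass, with a median log2 fold change of 0.95. Over all tested genes, 31% were called higher and 30.2% lower. Hpx, Serpina3f and Serpina3g passed the filter on low counts only through Malt1-WT, and Orm3 only through Vector control. Their directions therefore follow from the filter. Saa1 rose from 41 to 267 counts per group (log2 fold change 2.78, SE 0.26) and Saa2 from 70 to 259 (1.97, SE 0.23; edgeR adjusted p at most 8.0e-11 for both), but Saa3 held 99.7% of the counts of these 3 genes in Vector control and 99.6% in Malt1-WT. Per Saa1 count there were 848 ± 93.1 Saa3 counts in Vector control and 533 ± 113 in Malt1-WT (SD, n = 3 each), with no overlap. The serpin genes Serpina3f (0, 0 and 0 counts in Vector control, 51, 72 and 54 in Malt1-WT) and Serpina3g (1, 4 and 1 against 66, 77 and 74) were at least 62.8-fold higher, with a floor of 3 counts over the group, and higher by 5.18 on the log2 scale. Without Vector control replicate 2, which held 4 of the 6 vector counts, the Serpina3g value was 6.06. They belong to a family of similar genes whose reads can be shared. The haptoglobin gene Hp and the lipopolysaccharide-binding protein gene Lbp, also chosen by their values, rose from 143 ± 9.97 to 489 ± 15.1 CPM (1.77, SE 0.036) and from 6.31 ± 0.725 to 20.4 ± 1.17 CPM (1.69, SE 0.11).

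Lower in Malt1-WT were Orm1 (-1.68) and Orm3 (-1.38), which encode orosomucoids, the metalloreductase gene Steap4 (-0.91) and the hyaluronan-binding protein gene Tnfaip6 (-0.82), all by edgeR at an adjusted p of at most 0.00993. Orm3 rests on 48 and 17 counts per group and did not pass without Vector control replicate 3 (adjusted p = 0.0568) or Malt1-WT replicate 2 (0.0645). A further 2 genes, below the filter on low counts, are named because of their values. The hepcidin gene Hamp had 0, 0 and 0 counts in Vector control and 14, 13 and 6 in Malt1-WT, at least 11.7-fold higher against a floor of 3 counts over the group, and Lrg1 had 5, 13 and 7 counts in Vector control and none in Malt1-WT, at least 7.82-fold lower.

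**Figure D4:**
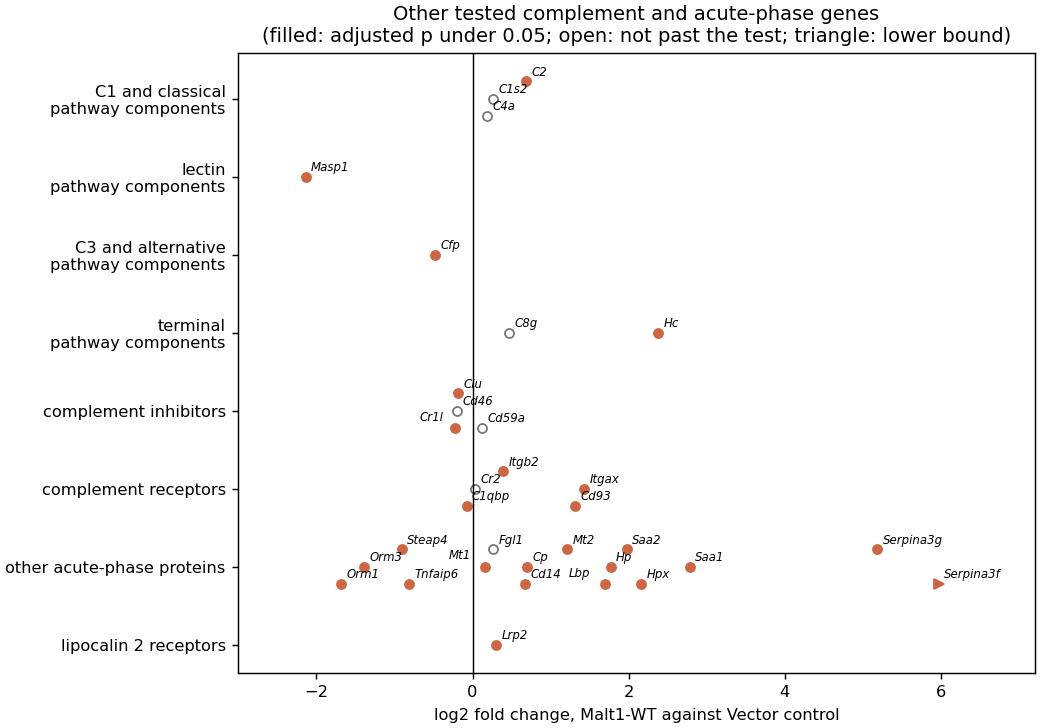
Log2 fold change of the other tested complement and acute-phase genes by list, Malt1-WT against Vector control (filled points passed at an adjusted p under 0.05, open points did not; the triangle marks the lower bound of Serpina3f). Complement inhibitors lie close to 0, while the acute-phase list runs from Orm1 at -1.68 to Serpina3g at 5.18 and the bound of Serpina3f at 5.97.

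Cytokines and factors known to act on acute-phase genes were tested in 20 of 21 cases, and 17 were higher and 3 lower (median log2 fold change 1.20). Among all tested genes, 31% were called higher and 30.2% lower. This list, too, was chosen with earlier results of these data known. Tnf (7.78), Il1a (7.62), Il1b (6.47) and Lif (4.12) changed most, and Il6, Cebpb and Nfkbiz are given with their values known. The Il1b value rests on 1, 1 and 2 counts in Vector control, so its size is uncertain. Il1b passed the filter on low counts only through Malt1-WT, so its direction follows from the filter. Il6 went from 17.6 ± 1.31 to 182 ± 4.36 CPM. Lower were Cebpd (-1.71), Il6ra (-0.58) and Il1r1 (-0.32). Cebpd, which encodes a C/EBP factor, fell from 43.8 ± 4.81 to 13.3 ± 1.38 CPM (edgeR adjusted p = 2.2e-24). Its relative Cebpb had 1522, 1881 and 1780 counts in Vector control and 4183, 2772 and 2407 in Malt1-WT (log2 fold change 0.95, SE 0.26, edgeR adjusted p = 0.0354). Malt1-WT replicate 1 was far above the other Malt1-WT libraries, and the Cebpb call was lost without any 1 of the Vector control libraries or Malt1-WT replicate 3 (adjusted p = 0.0521 to 0.110), with no filter (0.0796) and with the replicate block (0.0939). It held in the other 8 alternatives, among them DESeq2 (0.000922) and leaving out Malt1-WT replicate 1, where the rise was 0.65 (edgeR adjusted p = 1.1e-17). Nfkbiz, whose product is known to act on Lcn2, rose by 1.09 on the log2 scale (SE 0.034). Of the lipocalin 2 receptor genes, Lrp2 was higher by 0.31 (SE 0.057) and Slc22a17 had 1 count in all.

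Genes whose 6 log2 CPM values lay nearest to those of a member were taken for the 3 members with the largest change. For Serping1 they were the stress cytokine gene Gdf15 (distance 0.30), Mpp2 (0.38) and Hcar2 (0.46). For Saa3 they were the early-response gene Ier3 (0.42), Sqstm1 (0.66) and the monocyte chemokine gene Ccl2 (1.20). For C3 they were Ccl2 (0.37), Sdc4 (1.17) and Cd44 (1.19). With 2 groups, this measure reflects mostly the level and the fold change.

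Several of these genes are also made by liver, myeloid cells or fibroblasts, so markers of other cells were read in the same libraries. The 5 hepatocyte markers summed to 0.344 to 0.662 CPM in Vector control and 4.97 to 5.99 CPM in Malt1-WT, with Apob at 3.57 on the log2 scale, while Ttr and Serpina1a had no count and Alb had 2 in all. Apob, the 1 hepatocyte marker tested, had 12, 7 and 7 counts in Vector control and 92, 120 and 84 in Malt1-WT. It passed the filter on low counts through its Malt1-WT libraries, so its direction is not independent of the filter. The 10 leukocyte markers summed to 34.6 to 38.9 and 39.8 to 46.0 CPM, with Tyrobp at 0 and Ptprc at 0 to 3 counts per library. Within that list of 10, 6 were tested, and its members went both ways. Cd68 (4.48 ± 0.549 to 14.4 ± 1.21 CPM) and Adgre1 (3 to 81 counts per group) were higher, Lyz2 (3.78 ± 0.859 to 0.741 ± 0.400 CPM) and Fcer1g (14.8 ± 0.828 to 12.2 ± 0.795 CPM) were lower, and S100a8 and Csf1r did not pass (edgeR adjusted p = 0.834 and 0.0610). Adgre1 passed the filter on low counts only through Malt1-WT, so its direction follows from the filter. Lyz2 had 5, 19 and 17 counts in the Malt1-WT libraries, the first of them below the filter's minimum. The 5 fibroblast markers summed to 195 to 207 CPM in Vector control and 138 to 150 CPM in Malt1-WT, a sum made up mostly of Pdgfra. Pdgfra (-0.48) and Col1a1 (-0.88) fell on the log2 scale, Dcn and Lum did not pass (edgeR adjusted p = 0.417 and 0.802), and Col1a2 was not tested. The 4 endothelial markers summed to 4.58 to 5.84 and 10.3 to 10.8 CPM, mostly Pecam1, which rose by 1.02 on the log2 scale, while Cdh5 did not pass (edgeR adjusted p = 0.173) and Kdr and Tek were not tested. The part of these marker changes in the results above was not tested.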

How the data were processed

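The submitters' processing notes name the build GRCm38.p6 (mm10) and, as tools, featureCounts 1.6.3, STAR 2.7.3a and Trim Galore 0.6.0. The sources used here do not give the annotation, the strand setting or the handling of shared reads. The authors deposited raw counts per gene symbol, 1 column per library, with no normalisation, per the file headers and the values. Genes were kept by filterByExpr (minimum count 10), scaled by TMM and tested with edgeR 4.0.16 (R 4.3.3; glmQLFit with the robust option, glmQLFTest, no block), with Benjamini-Hochberg adjustment over all 13594 tested genes and calls at an adjusted p under 0.05. SEs are the log2 fold change divided by the square root of F. The fit was also run on simulated counts with far fewer changed genes than were called here, a setting unlike these data. CPM are TMM-scaled; log2 CPM for distances used a prior count of 2. Alternatives used other scalings, filters, DESeq2 1.42.0, limma-voom 3.58.1, a replicate block, summed near-identical copies and leaving out each library. Positions, exon lengths and transcripts are from GENCODE M21 (GRCm38); promoters are from RefSeq (GRCm38.p6). Named genes are the members, Malt1, up to 4 called genes above 1 CPM with the largest change per list, exceptions in counts of 5 or fewer, and the 3 nearest genes of 3 members; any other gene was named with its values known. The members and lists were chosen with earlier results of these data known. The authors' own fold changes and p-values were not used.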

Additional observations from a re-analysis of the deposited data

How the results depend on the processing

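All 7 tested members kept their direction and their call under the 15 alternatives (other scalings, filters and tests, the replicate block, summed copies and each library left out), with log2 fold changes of 2.52 to 2.67 for Serping1, 2.02 to 2.13 for Saa3, 1.68 to 1.79 for C3, 1.53 to 1.65 for Lcn2, 0.67 to 0.89 for C4b, 0.40 to 0.51 for C1s1 and 0.36 to 0.47 for C1ra. Of the 53 other listed genes tested, 46 were called, and 44 to 48 over 14 alternatives. Of all 13594 tested genes, 8320 (61.2%) were called, and 7632 to 8534 over the alternatives, some of which tested other numbers of genes. Of all genes, 4210 were called higher and 4110 lower, but 3528 and 5006 with library size only, which moved the median log2 fold change of all genes to -0.08. No pairing by replicate number was seen: deviations from the group means correlated at -0.0261, -0.0207 and 0.0174 between same-numbered libraries. Of 6 libraries, 2 correlated best with their own number. The labels do not say whether same-numbered libraries shared a culture or day, and 3 libraries per group cannot settle it. With the replicate block 7 of the 7 tested members, 44 of the 53 listed genes and 8168 of all 13594 genes were called. Cfb and Ptx3 had too few counts at this depth for a test, and C4b rests on 84 to 182 counts per library. Cfb shares 79.5% of its exon bases with Gm20547, and the effect on its counts was not tested. Levels per kb depend on the transcript length taken, most for Saa3 and Lcn2.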
